A study of Mus musculus with 6 samples.

Results

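The 36 genes described here encode proteins that carry cells from G2 through mitosis to cytokinesis, and were taken by symbol from a list of such genes. All 36 were among the 55487 genes of the count table and among the 15748 genes with enough counts to be tested. They were measured by RNA-seq of polyA RNA in D6AdP cells, a mouse embryonic stem (ES) cell line, at 0, 3 and 6 h after addition of the auxin analog 5-Ph-IAA at 500 nM, with 2 libraries per time. In every library, 0 h included, the cells were DDX6-AID-mCherry/DDX6-AID-mCherry, with the RNA helicase DDX6 joined to a degron and mCherry from both gene copies. They were also DCP1a-EGFP/+, a green tag on a decapping cofactor, and carried an OsTIR1-FLAG transgene (Tg). OsTIR1 is the plant F-box protein that hands degron-tagged proteins to the proteasome when the analog is present. Cells of every group grew on fibroblast feeders treated with mitomycin-C, in medium with PD0325901, which blocks MEK, CHIR99021, which blocks GSK3, and leukemia inhibiting factor. The line is the only line here, and neither untreated wells kept for 3 or 6 h nor treated cells lacking the degron were used here, so time in culture, the analog and the loss of DDX6 cannot be told apart.

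Entry into mitosis is driven by the kinase CDK1 bound to cyclin A or cyclin B. WEE1 holds CDK1 inactive by phosphorylation and the CDC25 phosphatases reverse this, while Polo-like and Aurora kinases build the spindle, the checkpoint proteins delay anaphase until chromosomes are attached, and the anaphase-promoting complex with CDC20 then destroys cyclin B and securin. Many of these genes are transcribed mainly in G2 and M, through promoter elements read by the MuvB complexes (DREAM, MYBL2 and FOXM1) and by NF-Y. Mouse ES cells cycle fast with a short G1. DDX6 represses translation and promotes decapping of its target mRNAs, and takes part in silencing by microRNAs.

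The libraries held 16357142 to 21846959 counts, of which 0.537% to 0.575% fell on the 36 genes. The ES cell markers were present in every library, with Pou5f1 at 609 to 658 CPM (counts scaled to library size, here with TMM factors) and Nanog at 628 to 711 CPM. They moved at 6 h: 7 of the 10 listed were called against 0 h, where 22.3% of all genes tested were. Of the 7, 3 were higher (Nanog, Tdgf1 and Sox2) and 4 lower. The largest of these changes were Esrrb at a log2 fold change of -0.42, Lin28a at -0.31 and Zfp42 at -0.29 (edgeR adjusted p = 2.86e-07, 0.000115 and 0.00261). Feeder fibroblast markers were present too: the 16 listed genes summed to 17344 and 15974 CPM at 0 h, 15516 and 15361 CPM at 3 h, and 17229 and 15666 CPM at 6 h. The 6 primitive endoderm markers summed to 19.5 to 23.9 CPM, with Sox17 and Foxa2 at or near 0 (at most 0.241 CPM) and Dab2 highest at 13.2 to 18.3 CPM. Of the 4 tested, 2 had positive and 2 negative changes at 6 h against 0 h, and Sox7 was called lower (-1.12). The 6 trophectoderm markers summed to 78.9 to 102 CPM, with Elf5 at or near 0 and Tfap2c (38.8 to 54.6 CPM) and Eomes (23.6 to 32.0 CPM) highest. Of the 5 tested, 3 had positive and 2 negative changes at 6 h against 0 h. Tfap2c and Eomes were called higher, at 0.26 and 0.35. Markers of the 2-cell-like state were scarce, and 3 of the 6 listed had enough counts to be tested. All 3 had negative changes at 6 h against 0 h (median log2 fold change -0.74). Of these, Usp17la was called lower, at 0.510 CPM against 1.07 at 0 h (-1.07, edgeR adjusted p = 0.0378). The part of these shifts in the values of the 36 genes was not tested. Ddx6 mRNA averaged 259, 270 and 253 CPM at 0, 3 and 6 h and was not called changed (edgeR's quasi-likelihood test with Benjamini-Hochberg adjustment, adjusted p = 0.602 for 3 h and 0.581 for 6 h against 0 h); the degron acts on the protein, so this does not check its loss.

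The 36 genes were mostly lower in library 1 than in library 2 of a time. Their summed CPM in libraries 1 and 2 was 5396 and 5654 for 0 h, 5589 and 5641 for 3 h, and 5421 and 5657 for 6 h. Library 1 was below library 2 for 34 of the 36 genes at 0 h, against 52.8% of all genes tested, for 22 at 3 h (50% of all genes) and for 29 at 6 h (49.8% of all genes). Library 1 of 0 h and library 1 of 6 h also had the highest feeder marker sums. The part of feeder RNA in the values of the 36 genes was not tested beyond a fit with the feeder markers as a covariate, given below. In bulk RNA, fewer cells in G2 or M and less of an mRNA per cell cannot be told apart.

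A feature shared by most of the 36 genes, and not used to choose them, lay in their promoters. RefSeq promoter windows of 300 bases (GRCm38.p6) were found for 30 of the 36. The cell cycle homology region, which MuvB complexes read, was searched as TTTGAA or TTTAAA on both strands (TTTGAA reads TTCAAA on the other strand, and TTTAAA reads the same on both). At least 1 match stood in 24 of the 30 windows (80.0%), against 2157 of the 11153 windows of all genes tested (19.3%) and 27.8% of all 27025 windows. In the last 100 bases of the window, around the start site, 22 of the 30 had a match (73.3%), against 4.92% of genes tested and 8.24% of all windows. CCAAT, the letters read by NF-Y, was found on either strand (as CCAAT or ATTGG) in 25 of the 30 windows (83.3%), against 39.2% of genes tested and 37.9% of all windows, and 2 or more matches stood in 18 (60.0%), against 15.0% and 12.2%. Each motif was searched on its own, so matches of different motifs may share a letter, and a match describes the sequence only. Bub1, Cdc25b, Mad2l1, Nek2, Nusap1 and Pttg1 were the 6 genes without TTTGAA or TTTAAA in the window. Other forms of the homology region were not searched, so its absence from these 6 is not shown. Promoters of 3 genes called changed at 6 h are shown from 5′ to 3′, with these motifs in capitals. Cdc25b has neither TTTGAA nor TTTAAA, Ccnb1 has the TTTAAA form, and Top2a has 2 copies of the TTTGAA form and 6 CCAAT matches. These promoters lie at chr2:131186698-131186997 on the plus strand, chr13:100786437-100786736 on the minus strand and chr11:99024140-99024439 on the minus strand.
Cdc25b promoter: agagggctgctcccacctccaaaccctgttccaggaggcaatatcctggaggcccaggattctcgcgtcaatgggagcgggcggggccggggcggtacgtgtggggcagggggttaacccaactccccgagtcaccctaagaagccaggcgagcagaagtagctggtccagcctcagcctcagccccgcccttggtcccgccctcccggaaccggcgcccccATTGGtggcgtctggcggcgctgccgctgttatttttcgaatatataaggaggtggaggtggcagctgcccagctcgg
Ccnb1 promoter: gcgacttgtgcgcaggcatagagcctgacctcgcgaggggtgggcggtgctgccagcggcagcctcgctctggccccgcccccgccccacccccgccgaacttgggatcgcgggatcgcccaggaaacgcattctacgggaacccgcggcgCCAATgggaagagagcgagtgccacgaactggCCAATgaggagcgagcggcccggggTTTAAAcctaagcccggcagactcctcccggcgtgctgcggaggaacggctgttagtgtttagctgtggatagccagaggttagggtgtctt
Top2a promoter: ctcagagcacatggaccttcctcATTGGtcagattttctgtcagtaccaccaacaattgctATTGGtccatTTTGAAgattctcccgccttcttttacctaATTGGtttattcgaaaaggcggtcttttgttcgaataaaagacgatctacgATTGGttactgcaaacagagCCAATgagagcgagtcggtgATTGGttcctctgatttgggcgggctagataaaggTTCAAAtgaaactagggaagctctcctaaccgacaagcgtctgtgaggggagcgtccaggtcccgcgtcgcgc

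**Figure D1:**
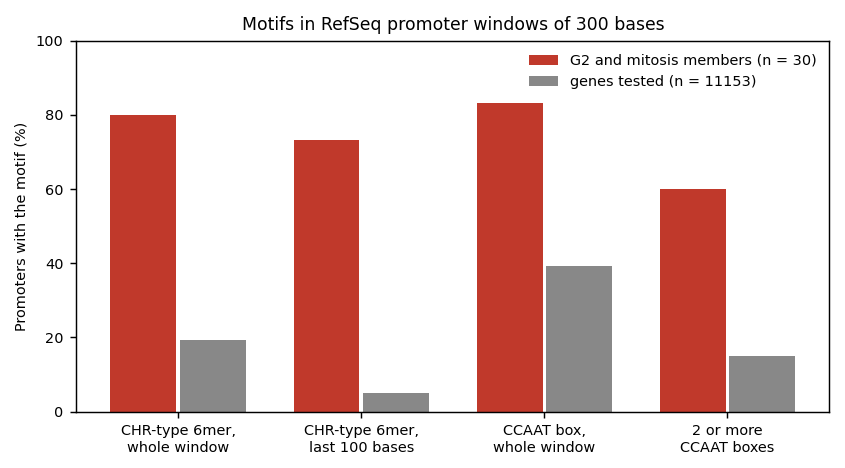
Share of RefSeq promoter windows with each motif, in percent, for the G2 and mitosis genes (30 windows, left bars) and all genes tested (11153 windows, right bars). The homology region, as TTTGAA or TTTAAA, stood in 80.0% of the windows of these genes and 19.3% of those of all genes tested. CCAAT stood in 83.3% and 39.2%.

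Per kilobase of annotated exon, over all 6 libraries, the highest levels were those of Top2a, the topoisomerase that untangles sister chromatids, at 88.3 CPM per kb (81.8 to 96.4 over libraries), and of Cdc20, the mitotic activator of the anaphase-promoting complex, at 75.3 (70.3 to 78.3). The lowest were those of the phosphatase genes Cdc25c, at 5.70 CPM per kb (4.93 to 6.10), and Cdc25b, at 6.48 (5.56 to 7.93), whose ranges overlap. All other members lay between 8.49 CPM per kb (Anln) and 59.7 (Plk1). The exon length counts every annotated exon, so a gene with a long exon that these cells do not use reads low. As totals, the 36 genes spanned 20.7 CPM (Cdc25b at 0 h) to 869 CPM (Top2a at 6 h), and the near-identical copy Ccnb1-ps had 1 to 6 counts per library beside Ccnb1.

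After 3 h with the analog, none of the 36 genes was called changed (edgeR, adjusted p under 0.05), where 0.140% of all genes tested were called, 0.0508% higher and 0.0889% lower. DESeq2 also called none of the 36, but it called only 12 of all genes. In the edgeR fit 1 member, Ttk, had an unadjusted p under 0.05, where 10.7% of all genes did. Ttk encodes the checkpoint kinase MPS1. Its levels were 55.0 and 57.8 CPM at 0 h, 62.8 and 61.6 CPM at 3 h, and 60.1 and 60.9 CPM at 6 h. Both 3 h libraries and both 6 h libraries lay above the 0 h libraries. Its log2 fold change at 3 h was 0.14 ± 0.05 (SE, edgeR adjusted p = 0.293). The next largest were Cdc25b at 0.11 ± 0.07 (edgeR adjusted p = 0.616) and Aurkb at 0.11 ± 0.05 (edgeR adjusted p = 0.470).

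The changes at 3 h were small. The log2 fold changes of the 36 genes ran from -0.04 (Espl1) to 0.14 (Ttk), with a median of 0.02, and 26 were positive and 10 negative. Their median absolute change was 0.024, against 0.045 for the 6939 genes within the members' range of average log2 CPM (4.59 to 9.64) and 0.076 for all genes tested. The CPM of the 3 h and 0 h libraries did not overlap for 11 of the 36 genes, and for 42.3% of all genes tested. Without library 1 of 0 h the median change of the 36 genes was -0.01, so its sign rests on that library. The 16 feeder markers were all lower at 3 h than at 0 h, and with their mean log2 CPM as a covariate the median of the 36 genes was -0.05 and Aurkb had a log2 fold change of -0.03 (edgeR adjusted p = 0.960).

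After 6 h, 9 of the 36 genes were called changed against 0 h (25%), where 22.3% of all genes tested were called. The 3 higher genes were Cdc25b, Aurkb and Top2a, where 10.0% of all genes were called higher. The 6 lower genes were Ccnb1, Wee1, Bub3, Cdc20, Pttg1 and Ect2, where 12.3% of all genes were called lower. Among the 6939 genes of like abundance 31.1% were called, 9.55% higher and 21.5% lower, so the share called among the 36 was close to or under these backgrounds. An unadjusted p under 0.05 was found for 14 of the 36, and for 34.6% of all genes tested. The CPM of the 6 h and 0 h libraries did not overlap for 20 of the 36, and for 59.5% of all genes tested. Of the 36 changes 17 were positive and 19 negative, with a median log2 fold change of -0.0061, against 0.0019 for all genes. The changes were small: 1 gene, Cdc25b, passed 1.2-fold (2.78%), where 28.6% of all genes and 10.3% of those of like abundance did, and the median absolute log2 fold change was 0.066, against 0.091 for genes of like abundance and 0.142 for all genes.

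**Figure D2:**
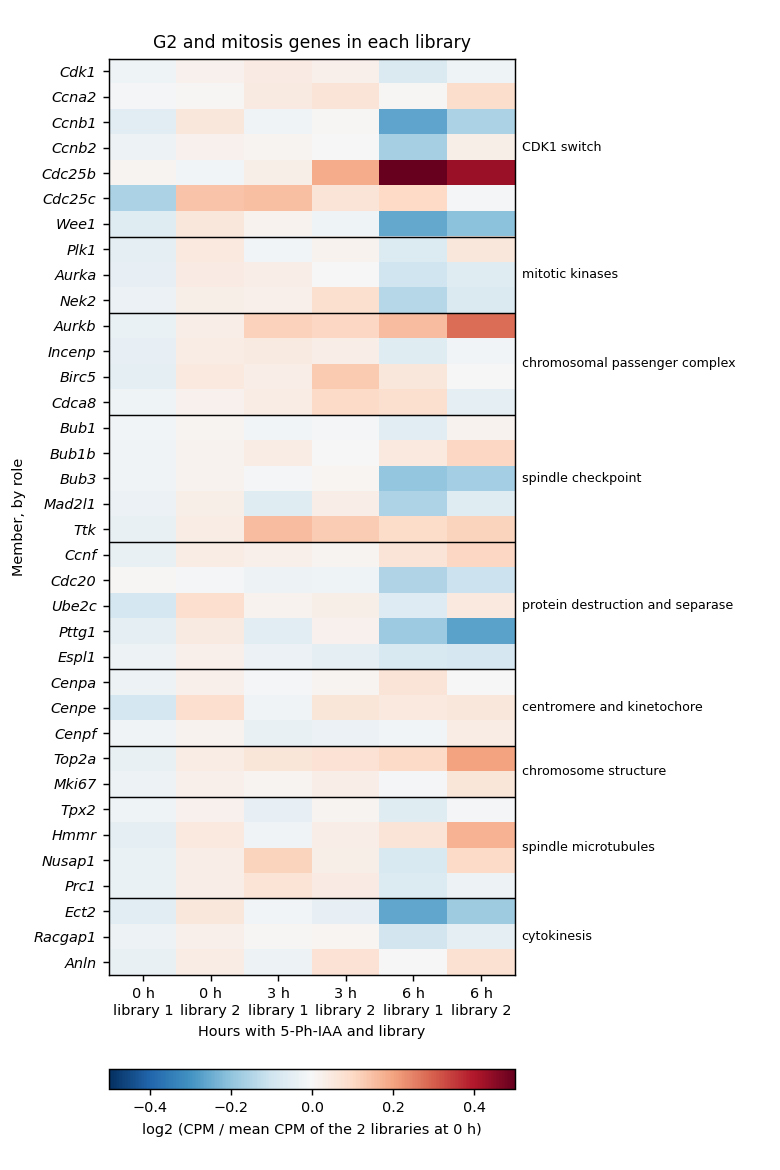
Level of each of the 36 genes (rows, by role) in each of the 6 libraries (columns, by hours with 5-Ph-IAA), as log2 of CPM over the mean CPM of the 2 libraries at 0 h. Cdc25b at 6 h is the darkest red pair, and Ccnb1, Wee1, Bub3, Pttg1 and Ect2 are blue in both 6 h libraries, while most other rows stay pale.

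**Figure D3:**
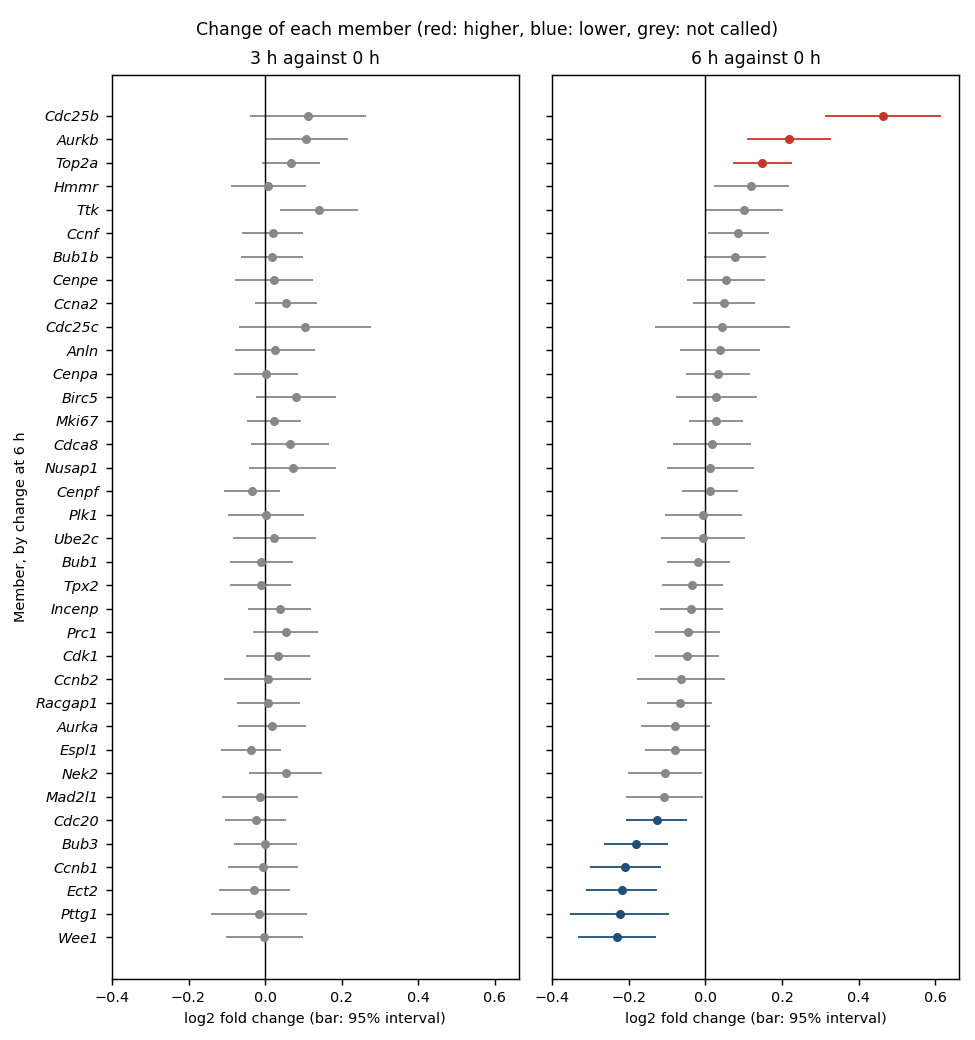
Log2 fold change of each of the 36 genes at 3 h against 0 h (left) and 6 h against 0 h (right), with 95% intervals from the edgeR fit; red is called higher, blue called lower and grey not called. None is called at 3 h, and at 6 h 3 are called higher, up to 0.46 for Cdc25b, and 6 lower, down to -0.23 for Wee1.

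Within the CDK1 switch, 3 of 7 genes were called at 6 h against 0 h (42.9%). Over all genes tested 22.3% were called, and 31.1% of those of like abundance, and the difference was not tested. In the switch an activator was higher, and an inhibitor and a cyclin were lower. Cdc25a, a CDC25 phosphatase gene outside the 36, was called lower (log2 fold change -0.19, edgeR adjusted p = 0.00246). Cdc25b encodes a phosphatase that removes the inhibitory phosphates from CDK1 (chromosome 2, 131186949 to 131198497, GRCm38). It measured 21.1 and 20.7 CPM at 0 h, 21.4 and 23.8 CPM at 3 h, and 29.5 and 28.2 CPM at 6 h. Both 6 h libraries lay above all other libraries. It averaged 28.9 ± 0.93 CPM with 6 h of analog and 20.9 ± 0.30 CPM at 0 h (SD, n = 2 each), a 1.38-fold difference (log2 fold change 0.46 ± 0.07 SE, edgeR adjusted p = 0.000192). This was the largest change among the 36 genes, in the second least abundant of them per kilobase.

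Wee1, the kinase that phosphorylates and restrains CDK1 (chromosome 7, 110122046 to 110143286), measured 81.4 and 88.3 CPM at 0 h, 86.0 and 83.5 CPM at 3 h, and 71.0 and 73.5 CPM at 6 h. The 6 h libraries lay below the other 4. Its mean was 72.3 ± 1.77 CPM with 6 h of analog and 84.9 ± 4.83 CPM at 0 h (log2 fold change -0.23 ± 0.05, edgeR adjusted p = 0.0024). Ccnb1, the mitotic cyclin B1 (chromosome 13, 100778650 to 100786570), measured 215 and 232 CPM at 0 h, 221 and 225 CPM at 3 h, and 186 and 200 CPM at 6 h. Again both 6 h libraries were the lowest, and the mean was 193 ± 9.89 CPM with 6 h of analog and 224 ± 12.4 CPM at 0 h (log2 fold change -0.21 ± 0.04, edgeR adjusted p = 0.00238).

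The other 4 genes of the switch were not called. Ccnb2, the second B-type cyclin, had a log2 fold change of -0.06 (95% interval -0.18 to 0.05), and its 6 h libraries, at 74.2 and 84.9 CPM, lay on both sides of the 0 h libraries, at 81.8 and 84.6. Cdk1 itself was at -0.05 (-0.13 to 0.04), Ccna2, cyclin A2, at 0.05 (-0.03 to 0.13), and Cdc25c, a second CDK1-activating phosphatase, at 0.04 (-0.13 to 0.22). For Ccna2 12.5% of the exon length overlaps Exosc9 on the other strand, and for Cdc25c 12.7% overlaps another gene; the strand setting of the counting is not given in the sources used here, so part of their counts may belong to the neighbour. The same holds, in smaller measure, for the called genes Nek2 (6.60% of the exon length), Cdc20 (2.84%, Elovl1) and Cdc25b (2.47%, Spef1), and for Prc1 (11.1%, Rccd1), Plk1 (7.09%), Cdca8 (4.48%) and Nusap1 (4.24%, Oip5).

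None of the 3 mitotic kinases Plk1, Aurka and Nek2, which act at centrosomes and spindle poles, was called at 6 h against 0 h. Plk1 stayed at a log2 fold change of -0.01 (95% interval -0.10 to 0.09) and Aurka at -0.08 (-0.17 to 0.01). Nek2, which helps centrosomes part (chromosome 1, 191821444 to 191833050), measured 81.1 and 84.3 CPM at 0 h, 84.2 and 87.4 CPM at 3 h, and 74.95 and 78.7 CPM at 6 h. Its 6 h libraries lay below the other 4, with a log2 fold change of -0.11 ± 0.05 against 0 h (edgeR adjusted p = 0.112).

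In the chromosomal passenger complex, which corrects faulty attachments of chromosomes, only the gene of its kinase was called at 6 h. Aurkb (chromosome 11, 69045647 to 69051664) measured 56.3 and 58.8 CPM at 0 h, 62.3 and 61.8 CPM at 3 h, and 64.0 and 69.9 CPM at 6 h. The 6 h libraries lay above the 3 h libraries and these above the 0 h libraries. Its mean was 67.0 ± 4.14 CPM with 6 h of analog and 57.6 ± 1.79 CPM at 0 h, a 1.16-fold difference (log2 fold change 0.22 ± 0.05, edgeR adjusted p = 0.00579; 0.0854 without library 2 of 6 h and 0.0562 with DESeq2). The scaffold Incenp was at -0.04 (95% interval -0.12 to 0.05), survivin (Birc5) at 0.03 (-0.08 to 0.13) and borealin (Cdca8) at 0.02 (-0.09 to 0.12).

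Of the 5 spindle checkpoint genes, Bub3 was lower. BUB3 brings BUB1 and BUBR1 to kinetochores (chromosome 7, 131560222 to 131571895). The gene measured 125 and 129 CPM at 0 h, 126 and 128 CPM at 3 h, and 111 and 113 CPM at 6 h. The libraries of 0 and 3 h lay close together, and both 6 h libraries lay below them (112 ± 1.28 CPM with 6 h of analog and 127 ± 2.24 CPM at 0 h, log2 fold change -0.18 ± 0.04, edgeR adjusted p = 0.00298). Mad2l1, which encodes the checkpoint effector MAD2, measured 101 and 105 CPM at 0 h, 98.6 and 105 CPM at 3 h, and 92.3 and 98.6 CPM at 6 h (log2 fold change at 6 h -0.11 ± 0.05, edgeR adjusted p = 0.117). The higher 6 h library lay just below the lower 3 h library. Bub1, at -0.02, Bub1b (BUBR1), at 0.08, and Ttk, at 0.10, were not called.

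Of the genes for protein destruction and separase, 2 of 5 were lower. Over all genes tested 12.3% were called lower, and 21.5% of those of like abundance. Pttg1 encodes securin, the inhibitor of separase (chromosome 11, 43420250 to 43426251). It measured 36.3 and 38.7 CPM at 0 h, 36.2 and 38.1 CPM at 3 h, and 33.1 and 31.2 CPM at 6 h. Both 6 h libraries were the lowest (32.1 ± 1.36 CPM with 6 h of analog and 37.5 ± 1.65 CPM at 0 h, log2 fold change -0.22 ± 0.06, edgeR adjusted p = 0.0138), and the call was lost without library 2 of 0 h (0.113), without library 2 of 6 h (0.124) and with DESeq2 (0.138). Cdc20 (chromosome 4, 118432901 to 118437352) measured 146 and 145 CPM at 0 h, 143 and 143 CPM at 3 h, and 131 and 135 CPM at 6 h. Its 6 h libraries lay below the rest, at 133 ± 2.86 CPM against 146 ± 0.97 at 0 h (log2 fold change -0.13 ± 0.04, edgeR adjusted p = 0.0228), a call that 9 of 16 alternative analyses did not make (adjusted p up to 0.154). Separase itself, Espl1, was at -0.08 (95% interval -0.16 to -0.0022, edgeR adjusted p = 0.132), the ubiquitin-conjugating enzyme gene Ube2c at -0.01, with 22.8% of its exon length shared with Tnnc2 on the other strand, and Ccnf, whose product cyclin F is a receptor of an SCF ligase, at 0.09 (edgeR adjusted p = 0.119).

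Top2a was also higher, and is the most abundant of the 36 (chromosome 11, 98992943 to 99024189). It measured 738 and 775 CPM at 0 h, 789 and 796 CPM at 3 h, and 808 and 869 CPM at 6 h. The 3 times did not overlap. The mean was 838 ± 43.2 CPM with 6 h of analog and 756 ± 26.6 CPM at 0 h, a 1.11-fold difference (log2 fold change 0.15 ± 0.04, edgeR adjusted p = 0.00701; 0.0555 without library 1 of 0 h). Mki67, which coats mitotic chromosomes and is the usual marker of dividing cells, was at 0.03 (95% interval -0.04 to 0.10), with 498 and 516 CPM at 0 h, 511 and 519 CPM at 3 h, and 505 and 529 CPM at 6 h. Its ranges at the 3 times overlap.

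No centromere or kinetochore gene was called: Cenpa, the centromeric histone, was at 0.03, the kinetochore motor gene Cenpe at 0.05 and Cenpf at 0.01. Nor was any of the 4 spindle microtubule genes. Of these, Hmmr, which helps organise spindle poles, had the largest change of any gene not called, with 120 and 128 CPM at 0 h, 123 and 127 CPM at 3 h, and 130 and 140 CPM at 6 h. Both 6 h libraries lay above the other 4 (log2 fold change 0.12 ± 0.05, edgeR adjusted p = 0.0753). Tpx2, an activator of Aurora A, was at -0.03, Nusap1 at 0.01 and Prc1, which bundles midzone microtubules, at -0.05.

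Among the cytokinesis genes, Ect2 was lower. ECT2 activates the GTPase RhoA at the site of the contractile ring (chromosome 3, 27097222 to 27153878). Its gene measured 146 and 158 CPM at 0 h, 150 and 148 CPM at 3 h, and 127 and 134 CPM at 6 h. The 6 h libraries lay below the other 4 (131 ± 5.18 CPM with 6 h of analog and 152 ± 8.37 CPM at 0 h, log2 fold change -0.22 ± 0.04, edgeR adjusted p = 0.00188). Racgap1, which binds ECT2 at the spindle midzone, was at -0.07 (95% interval -0.15 to 0.02) and Anln, the ring scaffold anillin, at 0.04 (-0.07 to 0.14).

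**Figure D4:**
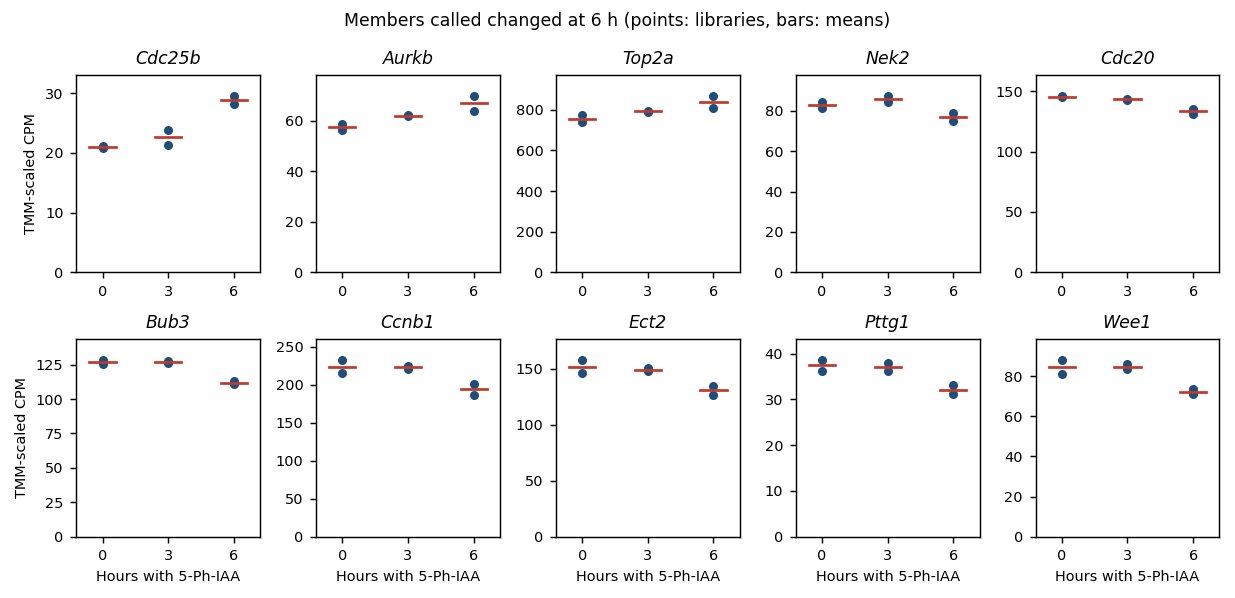
TMM-scaled CPM of the 10 genes called changed at 6 h against 0 h or against 3 h, in each library (points) with the mean of each time (bars), against hours with 5-Ph-IAA; every vertical axis starts at 0. In all 10 panels the 6 h points lie clear of the 0 h points, and in the 7 lower genes the 0 h and 3 h points lie close together.

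The later step, 6 h against 3 h, was tested in the same fit. Of the 36, 7 genes were called at 6 h (19.4%), where 21.7% of all genes tested were, 9.89% higher and 11.8% lower. Among the 6939 genes of like abundance 30.9% were called, 9.14% higher and 21.7% lower. An unadjusted p under 0.05 was found for 13 of the 36 and for 34.3% of all genes. Cdc25b was higher (log2 fold change 0.35 ± 0.07, edgeR adjusted p = 0.00203), and Wee1 (-0.23 ± 0.05, 0.00312), Ccnb1 (-0.20 ± 0.04, 0.0034), Bub3 (-0.18 ± 0.04, 0.00351), Ect2 (-0.19 ± 0.04, 0.00578), Nek2 (-0.16 ± 0.05, 0.0202) and Pttg1 (-0.21 ± 0.06, 0.0214) were lower. Aurkb, at 0.11, Hmmr, at 0.11, and Cdc20, at -0.10, were not called (edgeR adjusted p = 0.138, 0.0997 and 0.0610). The CPM of the 6 h and 3 h libraries did not overlap for 22 of the 36, and for 60.8% of all genes. This comparison shares its 6 h libraries with the comparison above.

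Feeder markers moved in that step too: all 16 had positive changes at 6 h against 3 h and 5 were called higher. With their mean as a covariate all 7 calls were lost (edgeR adjusted p = 0.168 to 0.664), and Top2a and Hmmr were called higher instead. The errors grew in all 7, and the changes differed in how far they moved. Pttg1 was at -0.26 ± 0.11 (SE), Bub3 at -0.15 ± 0.07 and Cdc25b at 0.25 ± 0.12, while Wee1 was at -0.12 ± 0.08, Nek2 at -0.08 ± 0.08, Ccnb1 at -0.06 ± 0.06 and Ect2 at -0.06 ± 0.06. With either 3 h library left out, 3 genes were called. Against 0 h, where 1 of the 16 feeder markers was called, the same covariate left 11 genes called, among them all 9 genes named above.

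The calls against 0 h differed in how they held. Cdc25b, Ccnb1, Wee1, Bub3 and Ect2 were called in all 16 alternative analyses, which included each fit without a library, DESeq2 and limma voom (largest adjusted p = 0.0441, for Ccnb1). Aurkb was called in 13, Top2a in 14, Pttg1 in 12 and Cdc20 in 7. With library totals in place of TMM factors, 11 genes were called, 6 higher and 5 lower, so the balance of directions depends on the scaling; over all genes the calls were then 2128 higher and 1457 lower, against 1575 higher and 1940 lower with TMM.

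Related genes were followed in lists beside the 36. No gene of these lists was called at 3 h, where only 0.140% of all genes tested were. At 6 h against 0 h, 1 of 17 genes of the anaphase-promoting complex and its partners was called higher and 2 lower (median log2 fold change -0.01), with Anapc15 at -0.24, the ubiquitin-conjugating enzyme gene Ube2s at -0.16 and Anapc1 at 0.13 (edgeR adjusted p = 0.00689, 0.00964 and 0.0127). Of 31 kinetochore genes 2 were higher and 5 lower (median -0.02), with Cenpl at -0.35, Mis12 at -0.19 and Mad1l1 at 0.21 (edgeR adjusted p = 0.00338, 0.0168 and 0.0299). These shares, 17.6% and 22.6%, lay close to the 22.3% of all genes.

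Of 31 other spindle and cytokinesis genes 5 were higher and 4 lower (29.0% called, median -0.03). The largest changes by adjusted p were in Gtse1, a microtubule-binding protein gene, at -0.37, in Kif23, the motor of centralspindlin that partners RACGAP1, at 0.42, and in Haus6 of the augmin complex at -0.19 (edgeR adjusted p = 7.34e-06, 2.43e-05 and 0.00262). Kif23 thus was higher, at 163 ± 15.9 CPM with 6 h of analog and 123 ± 1.51 CPM at 0 h, while Ect2 was lower. Of 23 condensin and cohesin genes 2 were higher and 8 lower (median -0.03), which is 43.5% called, against 22.3% of all genes and 31.1% of those of the members' abundance, with Ncapg2 at -0.30, Cdca5 (sororin) at -0.28 and Mau2 at -0.22 (edgeR adjusted p = 9.13e-05, 0.00127 and 0.00276).

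Among 24 upstream regulators, 1 was higher and 6 lower (29.2% called, against 22.3% of all genes and 31.1% at the members' abundance, median -0.04). Lowest in adjusted p were Cdc25a at -0.19, the checkpoint kinase gene Chek1 at -0.24 and the MuvB subunit gene Lin37 at -0.34 (edgeR adjusted p = 0.00246, 0.00678 and 0.0112). Foxm1 and Mybl2, whose products bind promoters of G2 and mitosis genes with MuvB, were among the 6 and, chosen after their values were seen, had log2 fold changes of -0.12 and -0.11 (edgeR adjusted p = 0.0490 and 0.0278). Of 36 G1 and S phase genes, set beside the 36 as the other side of the cycle, 2 were higher and 19 lower (58.3% called, median -0.13), with Cdt1 at -0.33, Orc1 at -0.41 and Cdk6 at -0.37 (edgeR adjusted p = 1.67e-05, 1.82e-05 and 2.11e-05). The difference between these lists was not tested.

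**Figure D5:**
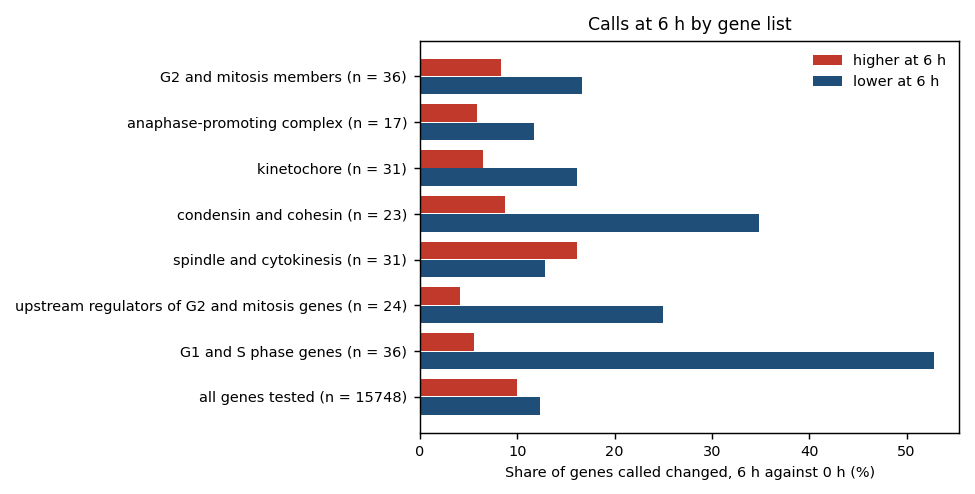
Share of genes called higher (upper bar of each pair) and lower (lower bar) at 6 h against 0 h, in percent of each list; n is the number of genes tested. The 36 G2 and mitosis genes (3 higher and 6 lower) lie near all genes tested (10.0% higher and 12.3% lower), and the G1 and S phase list has the longest lower bar (19 of 36).

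Since DDX6 acts with microRNAs, the 3′ UTRs were read for a seed match of microRNAs from the families miR-290, abundant in mouse ES cells, and miR-302. The microRNAs miR-291a-3p, miR-294-3p, miR-295-3p, miR-302b-3p and miR-302d-3p have the seed AAGUGCU at bases 2 to 8 (in capitals). Any other seed in these families was not searched. Shown are miR-294 (chr7:3220691-3220712, plus strand) and miR-302b (chr3:127545275-127545297, plus strand, both from RefSeq, GRCm38.p6).
mmu-miR-294-3p: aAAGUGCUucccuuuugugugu
mmu-miR-302b-3p: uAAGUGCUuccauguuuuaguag

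The match AGCACTT, read on the transcript strand only, stood in the longest annotated 3′ UTR (GENCODE M21, GRCm38) of 4 of the 36 genes (11.1%), against 17.6% of the 13520 protein-coding genes tested with such a UTR. Of the 4, Cdc25b was called higher at 6 h, Wee1 and Ect2 lower, and Mad2l1 was not called, so genes with a match lay on both sides. The sites of the 3 called genes are shown with the match in capitals, at chr2:131198070-131198093 (plus), chr7:110142596-110142619 (plus) and chr3:27098323-27098346 (minus).
Cdc25b site: tcgctggtcAGCACTTgctgctgg
Wee1 site: ccaactgggAGCACTTtaggcatc
Ect2 site: ctttgaattAGCACTTggtaaagt

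In base composition, the 36 genes had a median of 53.7% G or C in the last base of codons (36.8% to 72.4%), against 61.0% for protein-coding genes tested. Across the 36 genes, which are not independent replicates, this share had a Spearman rho of 0.13 with the change at 3 h and -0.04 with the change at 6 h. Their 3′ UTRs had a median length of 961 bases, against 1203, and UTR length had a rho of 0.05 with the change at 3 h and -0.11 at 6 h. The 3 genes called higher at 6 h had a median of 64.8% and the 6 called lower 50.8% in the last base of codons, with overlapping ranges.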

How the data were processed

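PolyA RNA of D6AdP ES cells was sequenced in 6 libraries, 2 each at 0, 3 and 6 h of 5-Ph-IAA. The deposited table holds raw counts per Ensembl gene, all of them whole numbers. Per the submitters' processing notes, the tools included featureCounts 2.0.3, HISAT2 2.2.1 and fastp 0.22.0, and the build was GRCm38; how strand and multiply mapped reads were handled, and with which annotation, is not given in the sources used here. GENCODE M21 paired 55141 IDs with symbols, and the other IDs held 0.0231% of the counts.

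From these counts, genes were kept by filterByExpr with a minimum of 10 counts (99.9% of the counts), scaled with TMM factors and tested with edgeR 4.0.16 (R 4.3.3) by its quasi-likelihood test in 1 fit of 6 libraries and 3 group means, with 3 residual and 13.7 prior degrees of freedom. P-values were adjusted by Benjamini-Hochberg over all 15748 genes, two-sided, and 0.05 was the threshold. SE is that of the log2 fold change. At these depths 3 counts stand for 0.137 to 0.183 CPM. Nothing in the labels says whether the 2 libraries of a time were separate cultures; p-values then cover the spread between these libraries alone, which may be technical. The code was tested on simulated data.

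Members and lists were chosen with earlier results of these data known. Full values are given for every gene called, for the 3 largest changes not called in each comparison, for the highest and lowest 2 levels per kilobase, and up to 3 called genes per further list by adjusted p. Alternatives were other scalings, no filter, a CPM minimum of 1, DESeq2 1.42.0, limma 3.58.1 voom, the feeder markers as covariate, only the 4 libraries compared, the replicate number as a block, leaving out each library and, added after seeing the data, edgeR's legacy test.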

Additional observations from a re-analysis of the deposited data

Results flagged for a closer look

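Because both treated times share the 0 h libraries, the test of 6 h against 3 h is the test of whether the effect at 6 h differs from that at 3 h. It was passed by 7 of the 36 genes (19.4%) and by 21.7% of all genes tested (edgeR's quasi-likelihood test, Benjamini-Hochberg adjusted). Among genes of like abundance it was passed by 30.9%. The effect at 6 h minus that at 3 h, on the log2 scale, was 0.35 for Cdc25b (adjusted p = 0.00203), -0.20 for Ccnb1 (0.0034), -0.23 for Wee1 (0.00312), -0.18 for Bub3 (0.00351), -0.19 for Ect2 (0.00578), -0.16 for Nek2 (0.0202) and -0.21 for Pttg1 (0.0214). In each of these the 6 h libraries lay outside the range of the 3 h libraries. The same was so for 22 of the 36 and for 60.8% of all genes tested, so it adds little to the calls. Feeder marker sums, at 17229 and 15666 CPM at 6 h and 15516 and 15361 CPM at 3 h, moved in the same step; their part in these differences was not tested beyond the covariate fit. None of the 7 was called there, with errors larger in each and log2 differences of -0.26 for Pttg1, -0.15 for Bub3, 0.25 for Cdc25b, -0.12 for Wee1, -0.08 for Nek2, -0.06 for Ccnb1 and -0.06 for Ect2.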

How the results depend on the processing

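At 3 h no member was called under any of the 16 alternatives. Calls at 6 h against 0 h numbered 9 and fell to 5 with no filter on low counts, a setting that tests more genes; leaving out a library gave 7 to 9. Against 3 h the 7 calls became 4 with no filter, 11 with the replicate block and 2 with the feeder-marker covariate, and leaving out a library gave 3 to 8; the cause was not tested. The sign of Aurkb at 3 h reversed with the covariate, to -0.0311 (adjusted p = 0.960). For the 12 genes given full values at 6 h against 0 h, 18 results lost and 6 gained a call under an alternative and 168 did neither; for the 10 genes against 3 h these were 24, 6 and 130. Over all 36 genes, calls were gained 10 times against 0 h, in 5 genes, and 12 times against 3 h, in 6 genes. The labels number the libraries 1 and 2, but same-numbered libraries deviated together by r = 0.04, 0.04 and -0.02 over all genes tested, and by -0.28, -0.12 and -0.27 over the 36 genes (a correlation across genes, which takes no account of a shift shared by all of them, such as the lower values in library 1). By this measure no pairing by number was seen, but it cannot show that the libraries were unpaired. With the block 11 members were called against 0 h as well, while calls over all genes tested rose from 3515 to 4227.

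Counts over all genes moved more. At 3 h the 22 calls became 0 with no filter, 12 with DESeq2, 242 with the block, 7 with the covariate, 74 with only 4 libraries and 4 to 249 without a library. At 6 h against 0 h the 3515 became 2029 with no filter and 1589 with DESeq2, and against 3 h the 3414 became 1725, 1355 and, with the covariate, 935, and 1514 to 3706 without a library. With 2 libraries per time, a change not called is not shown to be absent.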
